A study of Mus musculus with 24 samples.

Results

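The comparison described here is the change in autosomal gene expression between wild-type (WT) mouse embryonic stem cells (mESCs) and the same WT cells at day 7 of their differentiation toward early neurectoderm, measured by RNA-seq in 3 libraries of each. The genes were all entries of the deposited expression table outside the X and Y chromosomes whose mean over these 6 libraries was at least 1 FPKM (sequenced fragments per kilobase of a gene's transcript, relative to all those mapped), which gave 11761 of the 23119 entries listed. Serbp1 had a failed estimate and was left out, so 11760 were tested. Both groups were cells of the female JB4/EI7HZ2 line, which has a JF1 mother and a B6 father. It carries a Zeocin resistance cassette on the JF1 X chromosome and a neomycin resistance cassette on the B6 X chromosome, so that selection with Zeocin and G418 keeps both X chromosomes. The WT cells had no mutation in SmcHD1. The mESCs had no differentiation treatment and were grown in serum with 2i and LIF, that is with the MEK inhibitor PD0325901, the GSK3 inhibitor CHIR99021 and leukemia inhibitory factor. For day 7 the cells were first adapted to serum-free N2B27 medium with 2i and LIF, were turned into epiblast-like cells with Activin A, FGF2 and knockout serum replacement (KSR), and were then aggregated as embryoid bodies in GMEM with KSR. The study also holds WT cells at day 9 and as neural stem cells (NSCs), and a KO line, derived from the same cells by mutating SmcHD1, at all 4 stages, with 3 libraries in each of the 8 groups. The WT cells are 1 line, and the study describes its replicates as biologically independent experiments.

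In 2i and LIF, mESCs are held in naive pluripotency, the state of the preimplantation epiblast. LIF acts through STAT3, the MEK inhibitor blocks the ERK signal that FGF4 would give, and the GSK3 inhibitor stabilizes β-catenin, the effector of Wnt signalling. Once these factors are withdrawn, cells pass through a formative epiblast state, gain DNA methylation and become able to form the germ layers, of which the neurectoderm arises where Nodal, BMP and Wnt signals are low. Retinoic acid and FGF then set position along the head-to-tail axis of the neural tube, and sonic hedgehog from the notochord and floor plate sets its ventral side.

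The reads behind a library are known only as ratios, which ran from 0.960 to 1.06 in the mESC libraries and from 0.953 to 1.16 at day 7. The summed FPKM of a library was 740491 to 772602 in mESCs and 610863 to 701595 at day 7, so the mean dropped by 114578 FPKM to day 7 (exact two-sided permutation test, p = 0.1, the smallest that 3 libraries against 3 can give). Smchd1, the gene mutated in the KO line, had 13.9, 13.8 and 12.96 FPKM in WT mESCs and 26.4, 25.0 and 22.1 FPKM at WT day 7, against 2.71, 2.97 and 1.82 and 3.63, 3.95 and 3.82 FPKM in the KO libraries. Within WT it rose to day 7 (log2 fold change 0.81, SE 0.13, limma adjusted p 1.10e-05). Throughout, values of 3 libraries are given in the order of replicates 1, 2 and 3, and log2 fold changes are day 7 minus mESC on the scale of log2(FPKM + 1), which understates the change of genes with low values. Where a gene is said to go from one FPKM value to another, both are means of 3 libraries. Libraries are of whole cultures, so fewer cells of a type and less RNA of a gene per cell cannot be told apart.

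Day 7 cells differed from mESCs in most of the genes tested. At a limma adjusted p under 0.05, 3328 genes were higher at day 7 (28.3% of 11760) and 3805 were lower (32.4%). A change of at least 1 on the log2 scale was reached by 1564 of the higher genes (13.3% of those tested) and by 1180 of the lower genes (10.0%). With a pseudocount of 5 these numbers were 692 and 619. The largest changes were mostly rises, with 167 genes called at a log2 fold change of at least 3 and 88 at -3 or below. In 7282 genes (61.9%) the 3 libraries of one group all lay above the 3 of the other. The median change over all tested genes was -0.06. When each library was scaled to the same summed FPKM that median moved to 0.15 and the split became 4233 higher and 2378 lower, so that higher genes made up 64.0% of the calls instead of 46.7%. Of the genes called as deposited, 23 changed sign under that scaling. The counts of list members given next are to be read against the 28.3% and 32.4% of all genes. Some genes, among them Sox2 and T, are in more than 1 list, so the list counts are not independent of each other. They also depend on the level filter, since 792 tested genes had an mESC mean under 1 FPKM and passed only through day 7, and 716 of these were called higher. Such genes were 13 of the 24 tested neurectoderm genes, 9 of 14 in the midbrain, hindbrain and Hox list, 8 of 12 floor plate genes, 8 of 18 endoderm genes, 6 of 13 streak genes, 6 of 23 epiblast genes, 5 of 13 retinoic acid genes, 5 of 10 blood, endothelium and muscle genes, 4 of 9 trophectoderm genes, 4 of 14 primitive and extraembryonic endoderm genes, 4 of 13 neuronal genes, 3 of 11 neural crest and surface ectoderm genes, 3 of 16 Wnt targets, 5 of 34 adhesion genes, 7 of 32 matrix genes and 4 of 33 imprinted genes, whose counts and medians are therefore descriptions. In the other direction, 11 of 23 germline genes had a day 7 mean under 1 FPKM.

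**Figure D1:**
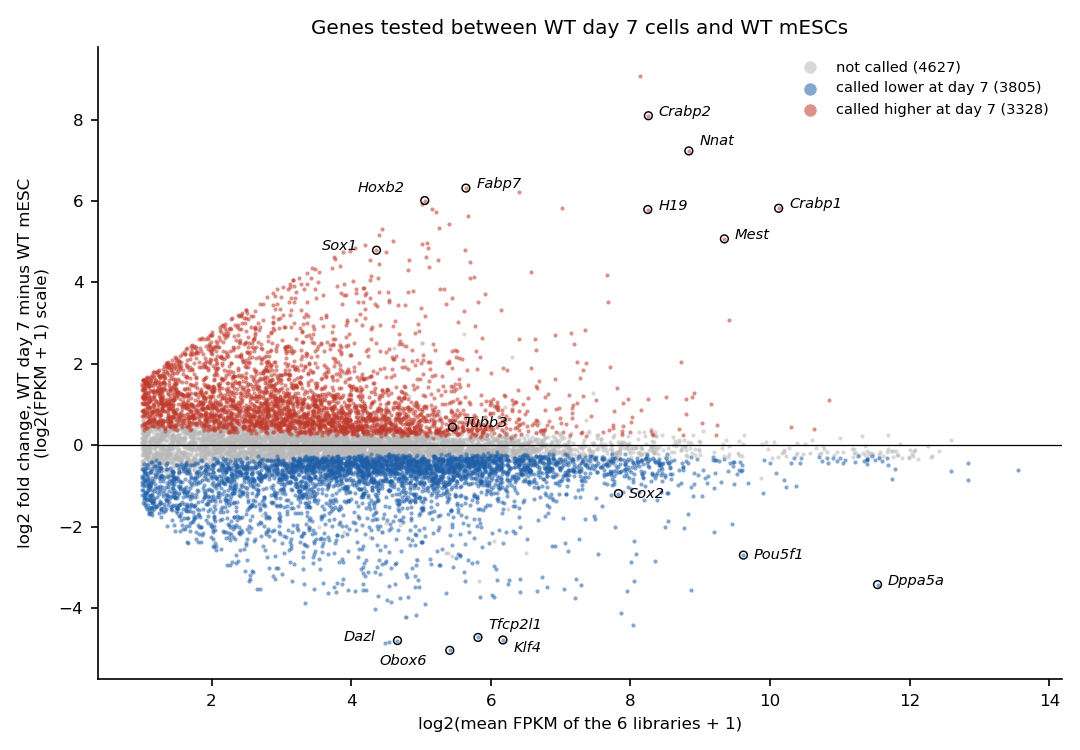
Each point is 1 of the 11760 genes tested, with its mean level over the 6 WT libraries on the horizontal axis, as log2(FPKM + 1), and its log2 fold change at day 7 on the vertical axis. Red points were called higher (3328) and blue points lower (3805) at a limma adjusted p under 0.05, and circles mark named genes, with Crabp2 at 8.10 and Tfcp2l1 at -4.72.

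The naive pluripotency genes fell almost as a whole. Of 20 tested, 19 fell and 1, Gbx2, rose, with a list median of -3.33 beside -0.06 for all genes. Klf4, a transcription factor of the naive state and a target of STAT3, had 140.1, 167 and 106 FPKM in the mESC libraries and 7.83, 3.57 and 2.03 FPKM at day 7 (log2 fold change -4.78, SE 0.36, limma adjusted p 4.65e-10). Tfcp2l1, which sustains self-renewal downstream of LIF, had 102, 113 and 108 FPKM in the mESC libraries and 5.08, 2.91 and 1.91 FPKM at day 7 (log2 fold change -4.72, SE 0.19, limma adjusted p 1.19e-14). Esrrb, an orphan nuclear receptor of the same network, had 173, 225 and 214 FPKM in the mESC libraries and 26.3, 13.7 and 13.7 FPKM at day 7 (log2 fold change -3.49, SE 0.38, limma adjusted p 1.55e-07). In all 3 genes the highest day 7 library was the first and lay far below the lowest mESC library. Dppa5a, an RNA-binding protein of the early embryo, fell from 7744, 3527 and 5117 FPKM to 587, 393 and 488 FPKM and was among the 5 genes that lost the most FPKM. Prdm14, which restrains DNA methylation in naive cells, fell from 56.2 to 4.35 FPKM by mean, and Tbx3 from 51.1 to 1.88 FPKM. Obox6, a homeobox gene of the oocyte and early embryo, fell from 96.7, 63.6 and 84.8 FPKM to 1.55, 1.07 and 1.89 FPKM and is the gene with the lowest log2 fold change of all, -5.04. Dppa3, a maternal factor that protects methylation marks in the zygote, kept the most of its level among the fallen members, with 137, 77.2 and 144 FPKM in mESCs and 48.7, 29.9 and 45.5 FPKM at day 7.

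Most core pluripotency genes fell too, with a smaller median change. Of 12 tested, 9 fell, 2 rose and 1 was not called, with a median of -0.999. Pou5f1, which encodes OCT4, had 1240.4, 1453 and 1384 FPKM in the mESC libraries and 264, 189 and 181 FPKM at day 7 (log2 fold change -2.70, SE 0.21, limma adjusted p 5.15e-10). Nanog, whose entry is shared with the near-identical copy Nanogpd, had 755, 884 and 929 FPKM in the mESC libraries and 112, 55.4 and 59.1 FPKM at day 7 (log2 fold change -3.56, SE 0.26, limma adjusted p 2.54e-10). Sox2, which acts with OCT4 in pluripotent cells and is also a marker of neural progenitors, had 310.2, 316 and 317 FPKM in the mESC libraries and 148, 134 and 131 FPKM at day 7 (log2 fold change -1.19, SE 0.13, limma adjusted p 1.04e-07). No day 7 library of these 3 genes reached an mESC library. Pou5f1 nevertheless had the highest mean FPKM of the 3 at day 7 as well. The members that rose were Lin28a, a blocker of let-7 microRNA maturation (37.1 to 246 FPKM, log2 fold change 2.76), and Tcf3, listed on chromosome 10 and so the gene of the E proteins and not Tcf7l1, which was once named the same (52.7 to 110.2 FPKM).

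**Figure D2:**
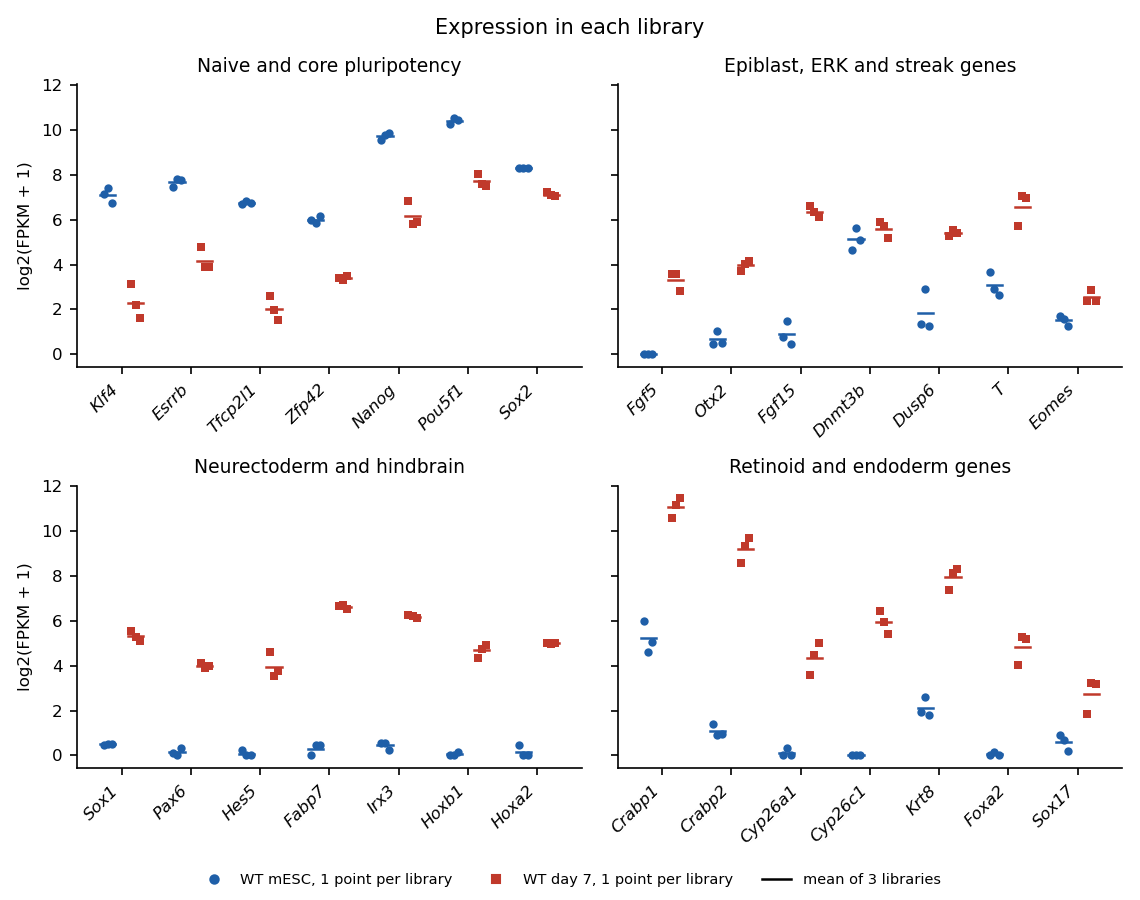
Expression of 28 genes in the 6 WT libraries as log2(FPKM + 1), 1 point per library (blue circles, mESCs; red squares, day 7) with a line at the mean of 3. The groups overlap in Dnmt3b alone, and in the lower right panel the first of the 3 red points of each gene, which is replicate 1, is the lowest for Crabp1, Crabp2, Cyp26a1, Krt8, Foxa2 and Sox17.

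Genes of the LIF response mostly fell. The list shares Klf4, Tfcp2l1 and Gbx2 with the naive list. Of 13 tested, 9 fell, 1 rose and 3 were not called (median -1.38). Socs3, the feedback inhibitor that STAT3 induces, had 27.9, 18.1 and 24.1 FPKM in the mESC libraries and 8.76, 9.08 and 6.95 FPKM at day 7 (log2 fold change -1.38, SE 0.27, limma adjusted p 1.69e-04). The genes of the receptor and of STAT3 itself were lower too, with Lifr going from 5.74 to 2.29 FPKM, Il6st from 40.1 to 10.6 FPKM and Stat3 from 20.2 to 6.59 FPKM. Bcl3 fell from 15.1 to 1.08 FPKM. The Socs3 promoter is shown because it holds the STAT motif TTCNNNGAA, in capitals, which 2 of the 13 list members (15.4%, Socs3 and Cish) and 8.47% of 27025 mouse promoters held on either strand. The window runs from 250 bases before to 50 bases after the start of transcription, from RefSeq on GRCm38.p6 at chr11:117969317-117969616 on the minus strand, and is written 5′ to 3′. Cish, the other member with the motif, was not called.
Socs3: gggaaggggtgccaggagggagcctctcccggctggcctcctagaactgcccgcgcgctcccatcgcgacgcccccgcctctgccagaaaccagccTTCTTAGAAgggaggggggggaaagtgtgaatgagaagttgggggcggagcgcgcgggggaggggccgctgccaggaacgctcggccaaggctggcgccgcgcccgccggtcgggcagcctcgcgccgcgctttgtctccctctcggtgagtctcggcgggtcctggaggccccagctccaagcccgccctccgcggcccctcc

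Feedback genes of FGF and ERK signalling moved both ways, with 9 of 17 risen, 2 fallen and 6 not called (median 0.81). Dusp6 and Dusp4 encode ERK phosphatases. Dusp6 had 1.55, 6.63 and 1.39 FPKM in the mESC libraries and 37.3, 45.8 and 41.6 FPKM at day 7 (log2 fold change 3.56, SE 0.43, limma adjusted p 8.39e-07), and Dusp4 rose from 1.29, 1.38 and 0.858 FPKM to 20.9, 32.8 and 28.0 FPKM. In both genes every day 7 library was above every mESC library. Spry1, Spry2 and Spry4, the sprouty inhibitors, rose by 0.81, 0.62 and 1.36 on the log2 scale, a call that Spry4 lost with a pseudocount of 5. Etv5 and Dusp14 went the other way, Etv5 from 204 to 36.3 FPKM and Dusp14 from 18.7 to 3.06 FPKM. The immediate early genes Egr1 and Fos were not called. Of the ligands, Fgf4, an ERK activator of naive cells, fell from 116 to 13.9 FPKM, while Fgf15 rose from 0.718, 1.79 and 0.397 FPKM to 97.2, 80.3 and 67.6 FPKM, Fgf8 rose from 1.69 to 30.6 FPKM, and Fgf5 was listed at 0 in every mESC library and had 10.98, 10.8 and 6.05 FPKM at day 7.

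Wnt and β-catenin targets split into genes that fell and genes that rose (7 of 16 higher, 5 lower, 4 not called, median -0.36). Of the 13 with an mESC mean of at least 1 FPKM 4 rose. Cdx1, a caudal homeobox gene, had 52.6, 42.2 and 36.7 FPKM in the mESC libraries and 0.793, 0.524 and 0.414 FPKM at day 7 (log2 fold change -4.82, SE 0.15, limma adjusted p 6.16e-16). Sp5, a transcriptional repressor and direct Wnt target, had 31.9, 54.8 and 42.2 FPKM in the mESC libraries and 4.26, 6.74 and 3.84 FPKM at day 7 (log2 fold change -2.89, SE 0.24, limma adjusted p 9.37e-10), and Notum, a secreted Wnt deacylase, fell from 33.2 to 1.85 FPKM. Every day 7 library of these 3 genes lay below every mESC library. Axin2 and Lef1, the general reporters of the pathway, were not called but were called lower without day 7 replicate 1 (limma adjusted p 0.0459 and 0.048), with Axin2 at 15.3, 14.8 and 16.8 FPKM in mESCs and 12.9, 11.2 and 9.23 FPKM at day 7. Among the genes that rose were T, Wnt8a (1.28 to 26.0 FPKM), Sp8 (0.503 to 8.11 FPKM) and the Wnt inhibitor Dkk1, which had 0.0943, 0.503 and 0 FPKM in the mESC libraries and 5.60, 20.9 and 19.7 FPKM at day 7. The Sp5 promoter is shown because it is a called target with a TCF/LEF motif (CTTTGAT or CTTTGAA, either strand, in capitals). Sp5, T and Dkk1 were the 3 of 11 list members with a promoter in the reference (27.3%) that held it, beside 8.77% of all promoters, and of these 3 Sp5 fell while T and Dkk1 rose. The window, again of RefSeq on GRCm38.p6, is chr2:70474673-70474972 on the plus strand, 5′ to 3′.
Sp5: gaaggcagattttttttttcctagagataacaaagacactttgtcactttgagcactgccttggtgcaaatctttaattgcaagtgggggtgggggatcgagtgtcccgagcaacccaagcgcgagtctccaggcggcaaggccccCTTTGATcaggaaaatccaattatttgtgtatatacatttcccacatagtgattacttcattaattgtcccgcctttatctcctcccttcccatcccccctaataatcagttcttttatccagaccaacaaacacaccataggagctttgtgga

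Of the formative and primed epiblast genes, 14 of 23 rose, 3 fell and 6 were not called (median 2.103). Among the 17 with an mESC mean of at least 1 FPKM, 8 rose. Otx2, a homeobox gene of the epiblast and anterior neural plate, had 0.378, 1.08 and 0.418 FPKM in the mESC libraries and 12.3, 15.4 and 17.1 FPKM at day 7 (log2 fold change 3.31, SE 0.27, limma adjusted p 5.71e-10). Pou3f1, which encodes the POU factor OCT6 and promotes neural fate, rose from 4.71 to 21.9 FPKM, and Krt18 from 8.25 to 181 FPKM. Nodal, a TGFβ ligand that the epiblast needs, fell from 47.3 to 15.5 FPKM. Dnmt3b, the de novo DNA methyltransferase of the epiblast, was not called, with 24.2, 48.4 and 32.7 FPKM in mESCs and 58.3, 51.4 and 34.9 FPKM at day 7, and was called higher when the libraries were scaled to the same sum or without mESC replicate 2 or day 7 replicate 3 (limma adjusted p 0.0143 and 0.026).

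All 13 primitive streak and mesoderm genes that could be tested rose, while the other 12 of the list had a mean under 1 FPKM and were not tested. T, which encodes brachyury and marks the streak and notochord, had 11.7, 6.44 and 5.29 FPKM in the mESC libraries and 52.1, 132 and 124 FPKM at day 7 (log2 fold change 3.51, SE 0.44, limma adjusted p 9.45e-07). The mesoderm genes Lhx1 and Foxc2 rose from 0.0268 to 5.90 FPKM and 0.127 to 6.19 FPKM. Eomes had 2.29, 1.98 and 1.39 FPKM in the mESC libraries and 4.25, 6.23 and 4.21 FPKM at day 7, and Mixl1, a homeobox gene of the streak, had 0.460, 0.883 and 0.610 FPKM in the mESC libraries and 1.85, 1.46 and 0.820 FPKM at day 7, with overlap between the groups. The Mixl1 call was lost without day 7 replicate 1 (limma adjusted p 0.0512). With single WT libraries left out 9 to 13 of the 13 genes rose, the fewest without day 7 replicate 3.

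Endoderm genes rose in 13 of 18 tested (median 2.84), or in 14 without day 7 replicate 1, and the list sum was 137 to 188 FPKM in mESCs and 820.0 to 1477 FPKM at day 7. Of the 10 with an mESC mean of at least 1 FPKM 6 rose. Cer1, a secreted Nodal, BMP and Wnt antagonist of anterior endoderm and mesendoderm, had 0.125, 0.133 and 0.276 FPKM in the mESC libraries and 40.9, 101 and 66.2 FPKM at day 7 (log2 fold change 5.81, SE 0.33, limma adjusted p 1.91e-12). Foxa2, a forkhead factor of definitive endoderm, notochord and floor plate, had 0, 0.106 and 0 FPKM in the mESC libraries and 15.1, 37.8 and 35.9 FPKM at day 7 (log2 fold change 4.78, SE 0.40, limma adjusted p 1.70e-09). Sox17, which marks endoderm more narrowly, had 0.852, 0.630 and 0.145 FPKM in the mESC libraries and 2.57, 8.44 and 7.96 FPKM at day 7 (log2 fold change 2.15, SE 0.27, limma adjusted p 5.82e-07). The keratin gene Krt8 rose from 2.87, 4.98 and 2.52 FPKM to 162, 282 and 317 FPKM and Krt19 from 2.37 to 71.5 FPKM. In each of these genes day 7 replicate 1 was the lowest of its group and still above all mESC libraries. Gata4 and Hhex were not called, and Epcam, an adhesion gene of pluripotent and epithelial cells, fell from 75.2 to 30.9 FPKM.

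Neurectoderm genes rose in 19 of 24 tested, with 3 fallen, 2 not called and a median of 2.44. Of the 11 with an mESC mean of at least 1 FPKM 6 rose. Sox1, the earliest definitive marker of neurectoderm, had 0.4004, 0.427 and 0.443 FPKM in the mESC libraries and 45.1, 37.99 and 33.1 FPKM at day 7 (log2 fold change 4.79, SE 0.19, limma adjusted p 7.82e-15). Pax6, a paired box factor of neural progenitors, had 0.0813, 0 and 0.270 FPKM in the mESC libraries and 16.1, 13.9 and 14.8 FPKM at day 7 (log2 fold change 3.84, SE 0.24, limma adjusted p 1.09e-11). Hes5, an effector of Notch signalling in neural progenitors, had 0.179, 0 and 0 FPKM in the mESC libraries and 23.1, 10.6 and 12.4 FPKM at day 7 (log2 fold change 3.88, SE 0.56, limma adjusted p 1.12e-05). For all 3 the lowest day 7 library lay far above the highest mESC library. Fabp7, a fatty acid binding protein of radial glia, rose from 0, 0.366 and 0.379 FPKM to 101, 102 and 90.2 FPKM, and Irx3, an Iroquois factor of the neural plate behind the forebrain, from 0.447, 0.477 and 0.198 FPKM to 74.5, 73.0 and 67.6 FPKM. Both are among the genes with the largest log2 fold changes. Cdh2, which encodes N-cadherin, went from 9.12 to 81.2 FPKM, Nes from 6.56 to 43.4 FPKM and Zfp521, a driver of neural entry, from 0.0783 to 9.34 FPKM. The members that fell were Sox2, Zic5 and Hesx1, and the number that fell was 2 without any one day 7 library and 1 without mESC replicate 2 or 3. Lhx2 lost its call without day 7 replicate 1, mESC replicate 1 or mESC replicate 2 (limma adjusted p 0.226, 0.108 and 0.0893), and 18 or 19 of the list rose when single WT libraries were left out. The forebrain genes Fezf2 and Lhx2 were low at day 7, with Fezf2 at 2.71 FPKM and Lhx2 at 2.58 FPKM.

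Genes of the hindbrain and the anterior Hox genes rose in 12 of 14 tested (median 2.90), of which 9 were under 1 FPKM by mean in mESCs and could enter only by being higher at day 7, and another 8 of the list were not tested. Hoxb2 was listed at 0 in every mESC library and had 50.7, 66.3 and 76.3 FPKM at day 7. Hoxb1, which marks rhombomere 4, had 0, 0 and 0.113 FPKM in the mESC libraries and 19.5, 25.7 and 29.5 FPKM at day 7 (log2 fold change 4.63, SE 0.31, limma adjusted p 3.19e-11). Hoxa2, which patterns the hindbrain from rhombomere 2 backward, had 0.389, 0 and 0 FPKM in the mESC libraries and 31.1, 30.6 and 31.7 FPKM at day 7 (log2 fold change 4.85, SE 0.24, limma adjusted p 3.45e-13). Egr2, which encodes KROX20 of rhombomeres 3 and 5, rose from 1.35 to 25.6 FPKM, and Hoxb3 from 0.0206 to 18.7 FPKM. All day 7 libraries of these genes lay above all mESC libraries. En2, of the midbrain and hindbrain border, fell from 2.70, 3.56 and 2.74 FPKM to 1.21, 0.304 and 0.769 FPKM.

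Retinoic acid genes held some of the highest gains of the whole comparison. Of 13 tested, 10 rose and none fell, with 3 not called (median 1.53). Crabp2, a carrier that brings retinoic acid to its nuclear receptors, had 1.65, 0.881 and 0.912 FPKM in the mESC libraries and 374, 632 and 820.1 FPKM at day 7 (log2 fold change 8.10, SE 0.25, limma adjusted p 6.16e-16). Crabp1, its cytosolic relative, had 62.7, 23.6 and 32.7 FPKM in the mESC libraries and 1502, 2273 and 2791 FPKM at day 7 (log2 fold change 5.82, SE 0.77, limma adjusted p 5.10e-06). The list sum went from 76.9 to 108 FPKM in mESCs to 2061 to 3815 FPKM at day 7, most of it from these carriers. The genes of all 3 retinoic acid degrading enzymes rose. Cyp26a1 had 0, 0.259 and 0 FPKM in the mESC libraries and 11.1, 21.0 and 31.6 FPKM at day 7, Cyp26b1 went from 0.0157 to 15.9 FPKM, and Cyp26c1 was listed at 0 in every mESC library and had 86.4, 61.3 and 41.0 FPKM at day 7. Aldh1a2, which makes retinoic acid, was not called, with 6.52, 3.38 and 5.56 FPKM in the mESC libraries and 2.47, 11.5 and 15.8 FPKM at day 7 and overlap between the groups, but was called higher without day 7 replicate 1 (limma adjusted p 3.23e-04).

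Floor plate and ventral neural genes rose in 10 of 12 tested, with Ntn1 and Olig2 not called (median 2.42). Of the 4 with an mESC mean of at least 1 FPKM 2 rose. The count was 10 without any 1 of the day 7 libraries. Replicate 1 was the lowest day 7 library in 9 of the 10 risen genes, so leaving it out cannot test these rises. Shh had 0.0779, 0 and 0.0861 FPKM in the mESC libraries and 4.27, 21.0 and 24.2 FPKM at day 7 (log2 fold change 3.76, SE 0.47, limma adjusted p 6.81e-07), in an entry that overlaps 9530036O11Rik. The hedgehog targets Gli1 and Ptch1 rose with it. Gli1 had 0.777, 0.947 and 0.797 FPKM and 8.51, 20.6 and 23.6 FPKM, and Ptch1 had 11.04, 11.5 and 10.3 FPKM and 32.1, 60.2 and 50.4 FPKM, in mESCs and at day 7. Nkx2-9, a homeobox gene next to the floor plate, had 0, 0.194 and 0.604 FPKM in the mESC libraries and 9.15, 59.8 and 59.9 FPKM at day 7. For Gli1, Ptch1 and Nkx2-9, as for Shh, replicate 1 was the lowest day 7 library and still lay above the mESC libraries. Nkx6-1 rose from 0.0803 to 19.3 FPKM.

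Of 11 neural crest and surface ectoderm genes, 6 rose and 3 fell. The members that rose furthest were the BMP targets Id1, with 2.44, 4.62 and 0.599 FPKM in the mESC libraries and 66.8, 58.6 and 69.1 FPKM at day 7, and Id2, with 5.56, 11.5 and 6.55 FPKM and 113, 113 and 107 FPKM, which encode inhibitors of helix-loop-helix factors. Sox9 rose from 0.0324 to 6.64 FPKM and Pax3 from 0.459 to 3.34 FPKM. Foxd3, a marker of crest and also of naive and primed pluripotent cells, fell from 18.3 to 1.63 FPKM. Among 13 neuronal genes 7 rose and 5 fell. The Notch ligand genes Dll1 and Dll3 rose from 0.662 to 7.73 FPKM and 0.621 to 9.68 FPKM. Genes of differentiated neurons were mixed. Gap43, of growing axons, rose from 1.95 to 6.98 FPKM and Elavl3, an RNA-binding protein of neurons, from 1.04 to 3.08 FPKM. Mapt, which encodes tau, fell from 11.02 to 0.832 FPKM, Nefl from 53.8 to 8.89 FPKM and Stmn2 from 136 to 76.1 FPKM, and Tubb3, a neuronal tubulin, had 16.8, 59.9 and 38.6 FPKM in the mESC libraries and 54.99, 45.2 and 41.1 FPKM at day 7 with overlap.

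Markers of cells outside the embryo proper and of blood vessels moved both ways. The trophectoderm list summed to 38.7 to 48.3 FPKM in mESCs and 62.3 to 100.1 FPKM at day 7, with 5 of 9 tested members risen, 4 of which passed the level filter only through day 7, and its defining genes not all risen, since Cdx2 was not called (6.92, 8.75 and 5.46 FPKM in the mESC libraries and 4.60, 6.15 and 4.62 FPKM at day 7) and Elf5 was under the mean of 1 FPKM. Without mESC replicate 3 Cdx2 was called lower (limma adjusted p 0.0392). Krt7, a keratin of simple epithelia, rose from 0.247 to 18.5 FPKM, and Tpbpa, a spongiotrophoblast gene listed at 0 in all mESC libraries, had 4.95, 4.85 and 2.92 FPKM at day 7. The primitive and extraembryonic endoderm list summed to 532 to 726 FPKM in mESCs and 408 to 469 FPKM at day 7, mostly from Apoe and Sparc, with 6 of 14 risen, 1 fallen (2 without mESC replicate 3) and the defining genes Sox7 and Amn under the mean of 1 FPKM. The blood, endothelium and muscle list summed to 40.7 to 58.0 FPKM in mESCs and 55.3 to 66.4 FPKM at day 7, with 6 of 10 risen, 5 of which passed the level filter only through day 7, and 4 fallen, or 2 fallen without day 7 replicate 1. In it, Acta2, smooth muscle actin, rose from 0.0433 to 27.6 FPKM, Hbb-bh1, embryonic globin, was listed at 0 in mESCs and had 2.58, 2.48 and 1.57 FPKM at day 7, and Pecam1, also expressed by mESCs, fell from 39.0 to 5.60 FPKM. The part of such cells in the changes of the shared genes was not tested.

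Germline genes that DNA methylation silences in somatic cells fell in 19 of 23 tested, with 1 risen and 3 not called (median -1.75). Dazl, an RNA-binding protein of germ cells, had 56.7, 37.4 and 49.6 FPKM in the mESC libraries and 1.73, 0.370 and 0.390 FPKM at day 7 (log2 fold change -4.80, SE 0.24, limma adjusted p 2.52e-13). Sohlh2, a germ cell transcription factor, had 78.7, 43.8 and 62.1 FPKM in the mESC libraries and 3.76, 2.08 and 3.59 FPKM at day 7 (log2 fold change -3.90, SE 0.25, limma adjusted p 1.57e-11). Mael and Ddx4, which act in the piRNA pathway, were low in both groups. Mael had 5.57, 5.03 and 5.37 FPKM in mESCs and 1.30, 0.754 and 0.637 FPKM at day 7, and Ddx4 had 4.71, 3.48 and 4.57 and 1.36, 0.868 and 0.832 FPKM. In all 4 genes no day 7 library reached an mESC library. Rpl10l and Tex19.1 fell from 119 to 8.53 FPKM and 122 to 8.28 FPKM. The exception, Tdrkh, rose from 0.822 to 8.65 FPKM. The promoters of Ddx4 and Mael are shown because each holds the motifs known from promoters of this class, the E-box CACGTG bound by MGA and MAX and the E2F site TCCCGC bound by E2F6. With both strands searched, the E-box was in 8 of the 22 members with a promoter in the reference (36.4%) and in 7.24% of all promoters, and the E2F site in 12 of 22 (54.5%) and in 20.02%. Motifs are in capitals, and the windows, 5′ to 3′ on the minus strand of GRCm38.p6 from RefSeq, are chr13:112652261-112652560 for Ddx4 and chr1:166238695-166238994 for Mael.
Ddx4: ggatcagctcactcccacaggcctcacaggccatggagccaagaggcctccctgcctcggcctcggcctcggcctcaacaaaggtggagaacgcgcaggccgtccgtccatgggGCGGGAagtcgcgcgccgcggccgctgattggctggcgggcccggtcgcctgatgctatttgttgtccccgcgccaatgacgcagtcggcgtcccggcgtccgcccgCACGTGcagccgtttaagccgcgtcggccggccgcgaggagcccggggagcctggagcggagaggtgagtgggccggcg
Mael: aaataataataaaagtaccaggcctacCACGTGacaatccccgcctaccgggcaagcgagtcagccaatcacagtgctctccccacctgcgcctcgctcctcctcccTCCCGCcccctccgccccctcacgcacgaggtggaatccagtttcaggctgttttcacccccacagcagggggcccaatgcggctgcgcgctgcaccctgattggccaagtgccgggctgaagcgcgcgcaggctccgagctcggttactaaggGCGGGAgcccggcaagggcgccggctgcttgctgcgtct

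Of 13 genes of the DNA methylation machinery 2 rose and 5 fell, beside 28.3% and 32.4% of all genes. The methylcytosine dioxygenase genes changed order, as Tet1 had 10.7, 19.3 and 14.1 FPKM in the mESC libraries and 7.24, 5.01 and 4.02 FPKM at day 7, Tet2 fell from 21.8 to 4.03 FPKM and Tet3 rose from 2.18 to 7.81 FPKM. Dnmt1, Dnmt3a, Dnmt3l and Uhrf1 were not called, although Dnmt3l was without mESC replicate 3 (limma adjusted p 0.0261). Zfp57, which guards methylation at imprinted loci, fell from 199 to 34.3 FPKM. Of 30 Polycomb subunit genes, 8 rose and 14 fell, again beside 28.3% and 32.4% of all genes. With single WT libraries left out 11 to 15 fell. The median of these genes, -0.21, became -0.02 when libraries were scaled to the same sum. The PRC2 genes Suz12 and Eed fell from 108 to 33.9 FPKM and 99.3 to 49.0 FPKM, while Ezh2, the catalytic subunit, rose from 75.8 to 105 FPKM. E130012A19Rik, also known as Epop, a PRC2 partner of pluripotent cells, fell from 308, 815 and 614 FPKM to 84.1, 76.4 and 63.4 FPKM. Among the PRC1 chromobox genes Cbx7 fell from 53.4 to 19.6 FPKM and Cbx2 rose from 17.6 to 33.5 FPKM. Of 28 genes of chromosome structure 17 were not called, and the list median, -0.11, became 0.13 when libraries were scaled to the same sum. The number of its genes that fell was 6, or 11 without mESC replicate 1. Hmga2, a DNA-bending protein of embryonic tissue, rose from 12.4, 10.6 and 11.4 FPKM to 68.2, 109 and 109.9 FPKM. Of 18 genes of the 2-cell-like state, 16 had a mean under 1 FPKM and 1 was not listed. The entry tested, Eif1a, fell from 95.2 to 53.3 FPKM.

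Imprinted genes rose in 22 of 33 tested entries, fell in 6 and had a median of 1.26. Nnat, a paternally expressed proteolipid gene of the brain, had 5.14, 5.49 and 4.35 FPKM in the mESC libraries and 725, 964 and 1033 FPKM at day 7 (log2 fold change 7.23, SE 0.25, limma adjusted p 2.08e-15). It lies inside an intron of Blcap on the opposite strand (mm9 chr2:157385814-157388258), and whether reads were counted by strand is not given, so reads of either gene could have been counted for both. H19, a maternally expressed noncoding RNA, had 10.4, 17.6 and 4.48 FPKM in the mESC libraries and 491, 509 and 786 FPKM at day 7 (log2 fold change 5.79, SE 0.38, limma adjusted p 1.30e-10). Mest had 21.2, 62.2 and 36.5 FPKM in the mESC libraries and 1294, 1321 and 1163 FPKM at day 7 (log2 fold change 5.07, SE 0.48, limma adjusted p 5.57e-08). All 3 were above the mESC libraries in every day 7 library. Igf2, the neighbour of H19, had 0.275, 0.589 and 0.669 FPKM in mESCs and 2.31, 2.61 and 3.13 FPKM at day 7. On chromosome 6, Peg10 and Sgce, which share a start region, rose from 32.9 to 208 FPKM and 4.15 to 48.5 FPKM. They lie in a run of 7 neighbouring tested genes, from Col1a2 to Asb4 (mm9 chr6:4455697-5383021), which all rose at least 2-fold. The noncoding RNAs of the Dlk1 and Meg3 domain, Meg3, Rian and Mirg, rose by 1.37, 1.26 and 1.36 on the log2 scale. The members that fell were Plagl1, Grb10, Slc38a4, Zrsr1, Gab1 and Cd81.

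Adhesion genes changed in both directions. Cdh1, which encodes E-cadherin, had 81.5, 73.1 and 69.5 FPKM in the mESC libraries and 38.9, 41.7 and 38.8 FPKM at day 7 (log2 fold change -0.89, SE 0.17, limma adjusted p 1.52e-04), and Cdh2 had 7.69, 9.63 and 10.0 FPKM in the mESC libraries and 81.5, 87.4 and 74.8 FPKM at day 7 (log2 fold change 3.03, SE 0.13, limma adjusted p 1.27e-14). The levels crossed, so that Cdh2 was the higher of the pair in every day 7 library and Cdh1 in every mESC library. Cdh6 and Cdh11 rose from 0.142 to 7.10 FPKM and 1.30 to 4.77 FPKM, and Cdh3 fell from 15.1 to 5.20 FPKM. In the list as a whole 18 of 34 genes rose and 11 fell, and of the 29 with an mESC mean of at least 1 FPKM 13 rose. Zeb2, a repressor of epithelial genes, rose from 0.0156 to 8.78 FPKM, while Esrp1, a splicing factor of epithelia, rose as well, from 0.703 to 8.48 FPKM. Several basement membrane genes fell, with Fn1 going from 152 to 66.2 FPKM, Lamc1 from 84.8 to 28.1 FPKM, Nid1 from 39.3 to 10.3 FPKM and Hspg2 from 27.8 to 8.87 FPKM, and Col4a1, Col4a2 and Lama1 were not called (Lama1 was without mESC replicate 3, limma adjusted p 0.0494). Other members of the matrix list rose, among them Mfap2 (0.0751 to 41.6 FPKM), Fbn2 (0.553 to 8.97 FPKM) and Vcan (3.65 to 15.2 FPKM). Over the 32 matrix genes tested, 14 rose and 8 fell, and of the 25 with an mESC mean of at least 1 FPKM 8 rose.

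Of 22 cell cycle regulators tested, 6 rose and 10 fell, beside 28.3% and 32.4% of all genes. Ccnd2, a D-type cyclin, had 0.517, 0.588 and 0.191 FPKM in the mESC libraries and 31.8, 52.9 and 52.99 FPKM at day 7 (log2 fold change 5.01, SE 0.21, limma adjusted p 1.55e-14), Ccnd3 fell from 273 to 80.1 FPKM and Ccnd1 rose from 31.4 to 65.6 FPKM. The Ccnd1 call was lost when any day 7 library or mESC replicate 1 or 3 was left out (limma adjusted p 0.0605, 0.113 and 0.0878 without day 7 replicates 1, 2 and 3, and 0.199 and 0.0986 without the mESC replicates). The CDK inhibitor gene Cdkn2a fell from 66.2, 36.6 and 45.5 FPKM to 5.55, 3.35 and 3.83 FPKM. Among p53 targets 12 of 20 fell and 2 rose (median -0.56), and none rose without mESC replicate 3 and 1 without day 7 replicate 2 or 3 or mESC replicate 2. Cdkn1a, which encodes p21, had 175, 102 and 131 FPKM in the mESC libraries and 27.0, 36.1 and 34.3 FPKM at day 7 (log2 fold change -2.01, SE 0.22, limma adjusted p 8.01e-08), Phlda3 fell from 89.5 to 23.2 FPKM, and Trp53 itself fell from 283 to 150.1 FPKM.

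Hypoxia targets rose in 11 of 17 tested (median 0.95), a count that was 6 without mESC replicate 2 and 8 without day 7 replicate 1 or 2. Vegfa, an angiogenic growth factor, had 22.2, 5.78 and 6.71 FPKM in the mESC libraries and 37.8, 37.6 and 43.6 FPKM at day 7 (log2 fold change 1.93, SE 0.55, limma adjusted p 0.00619), and Adm, which encodes adrenomedullin, rose from 0.163 to 7.35 FPKM. Hk2 was not called, and Egln3 lost its call without mESC replicate 2, day 7 replicate 1 or day 7 replicate 2 (limma adjusted p 0.135, 0.0655 and 0.0534). Of 23 glycolysis genes 9 rose and 3 fell. Slc2a1, the glucose transporter GLUT1, rose from 189.7 to 419 FPKM, the lactate exporter gene Slc16a3 from 32.8 to 165 FPKM, and the phosphofructokinase gene Pfkp fell from 120.4 to 26.4 FPKM. Cholesterol synthesis genes were mostly not called (16 of 21), as were genes of the integrated stress response (15 of 20), in which Asns fell from 697 to 210.0 FPKM and Ddit4 had 158, 12.02 and 21.2 FPKM in the mESC libraries and 203, 271 and 303 FPKM at day 7. In Vegfa and Ddit4 mESC replicate 1 was the highest of its group. Atf4 and Trib3, the defining members of the latter list with Chac1, were not called.

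**Figure D3:**
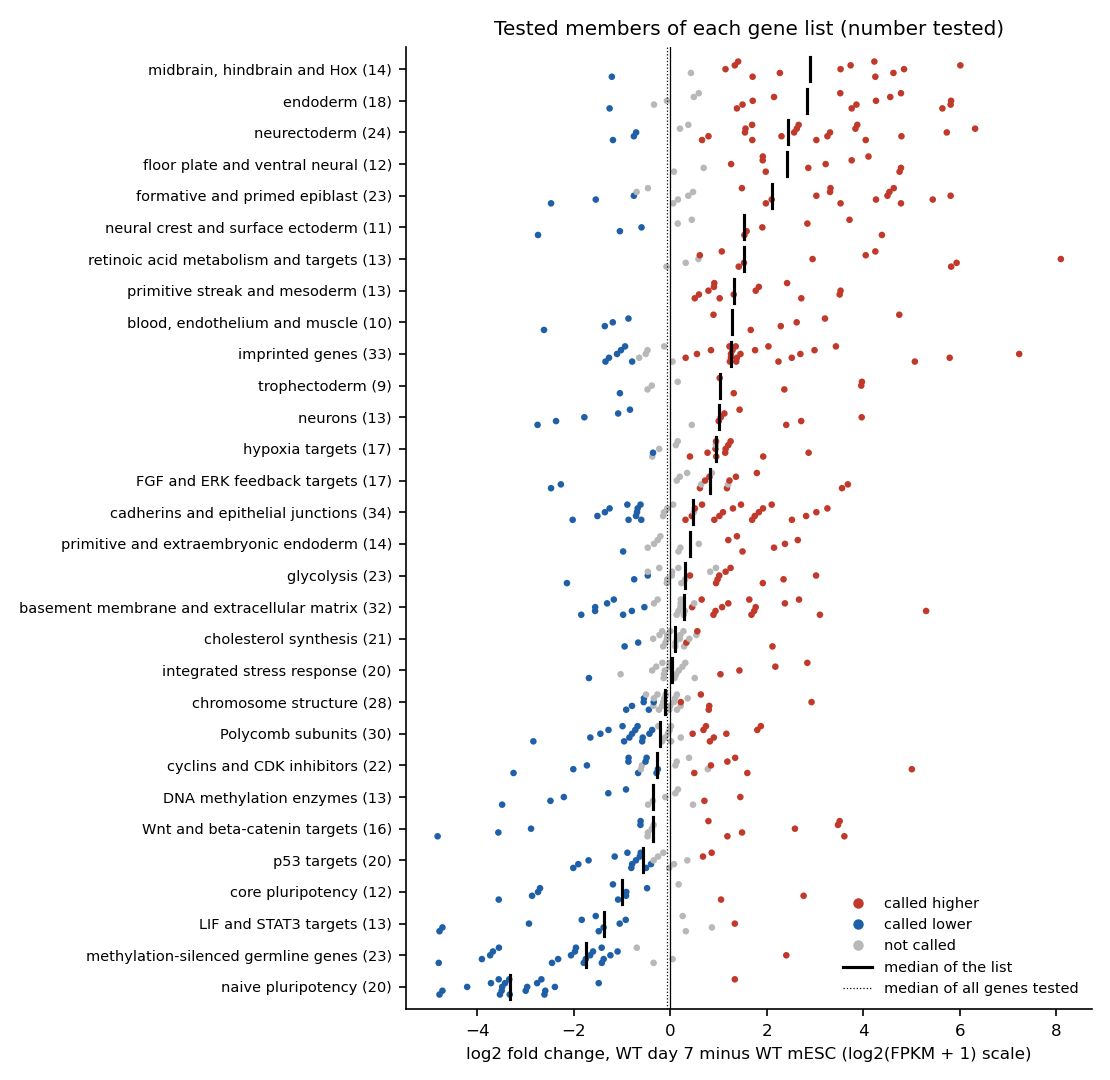
Each point is a tested member of a gene list, placed by its log2 fold change at day 7 (red, called higher; blue, called lower; grey, not called), with a black bar at the list median and a dotted line at the median of all tested genes (-0.06). Naive pluripotency, none of whose tested members had an mESC mean under 1 FPKM, has a median of -3.33, while 9 of the 14 members behind the median of the midbrain, hindbrain and Hox list (2.90) passed the level filter only through day 7.

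Over all tested genes, the largest gains in FPKM were those of Crabp1, Mest, Nnat, Mdk and Mif. Mdk, the growth factor midkine, had 149, 133 and 143 FPKM in the mESC libraries and 991, 1178 and 1504 FPKM at day 7 (log2 fold change 3.08, SE 0.35, limma adjusted p 3.28e-07), and its relative Ptn, pleiotrophin, rose from 1.06, 0.901 and 1.75 FPKM to 200.01, 149 and 148 FPKM. Both growth factors were higher in every day 7 library. Eef1a1, the translation elongation factor, and Rplp1, a ribosomal protein, were among the genes that lost the most FPKM, with Eef1a1 going from 8386 to 6186 FPKM. Of 70 ribosomal protein genes tested, 20 were lower and none higher (median -0.24), but with libraries scaled to the same sum 3 were lower and 3 higher (median -0.01). Their share of a library's FPKM was 25.0% to 29.9% in mESCs and 26.1% to 29.4% at day 7. The largest falls included Spp1, which encodes the secreted protein osteopontin (445, 415 and 463 FPKM and 31.1, 23.3 and 20.4 FPKM), Pglyrp1 (37.4 to 1.36 FPKM) and Serpinb1a (42.2 to 0.485 FPKM). The values of 3 microRNA entries rest on very short transcripts, since FPKM divides by length. Mir1905, 82 bases on the minus strand inside Mex3a (mm9 chr3:88340223-88340304), was listed at 0 in every mESC library and had 775, 537 and 378 FPKM at day 7. Mir682 and Mir692-1, of 96 and 109 bases, fell from 14553 to 9492 FPKM and 9515 to 5172 FPKM. The libraries were made from poly(A) RNA, so these entries do not measure mature microRNAs.

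Called genes with high levels were mostly lower and those with low levels mostly higher. Of 951 genes with a mean of at least 100 FPKM, 90 rose (9.46%) and 473 fell (49.7%), while of 3207 genes between 1 and 5 FPKM, 1196 rose (37.3%) and 744 fell (23.2%). With libraries scaled to the same sum these became 173 and 291 for the first and 1369 and 581 for the second. Over all levels, 792 genes had an mESC mean under 1 FPKM and passed the filter only through day 7, and 716 of these were called higher. Their number at each level was not counted, so the counts by level are descriptions. A group of 130 genes were under 1 FPKM in every mESC library and at least 5 FPKM in every day 7 library, and 26 genes went the other way. Genes that rose at least 2-fold had a median of 1.71 FPKM in mESCs and 9.51 FPKM at day 7, and genes that fell as far had 15.5 and 3.52 FPKM. Near the level filter, D630037F22Rik and Megf11 had the lowest means among the members (both 1.00 FPKM), and Zmynd17 and Slc27a6 the highest among genes left out (both 0.999 FPKM).

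Of the 3 day 7 libraries, replicate 1 was the lowest in 9 of the 10 floor plate and ventral genes called higher and in 13 of the 13 endoderm genes called higher, beside 1496 of all 3328 genes called higher. It was the highest day 7 library in 18 of the 19 naive pluripotency genes called lower, beside 1744 of all 3805. Among the 19 neurectoderm genes called higher it was the lowest in 6 and the highest in 11. Spink3, a secreted trypsin inhibitor of endoderm, varied widely, with 0, 0.932 and 0 FPKM in the mESC libraries and 11.97, 93.1 and 196 FPKM at day 7 (log2 fold change 5.64, SE 0.74, limma adjusted p 3.22e-06). Meox1, a somite homeobox gene, had 1.34, 5.003 and 2.43 FPKM in the mESC libraries and 2.88, 14.9 and 30.2 FPKM at day 7 and overlapped between the groups, and its call was lost without mESC replicate 1 or day 7 replicate 3 (limma adjusted p 0.0541 and 0.0841). Across all tested genes the median SD of log2 values was 0.144 at day 7 and 0.199 in mESCs, so the day 7 libraries were not more variable as a whole. The part of replicate 1 in the rises of these lists was not tested.

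Day 9 cells came from the same protocol as day 7 cells, whereas the NSCs were derived from mESCs by a separate protocol, so the NSC values are not a later point of the same course. Pou5f1 was 1359 ± 109 FPKM in mESCs, 211 ± 45.8 FPKM at day 7, 38.6 ± 8.41 at day 9 and 0.385 ± 0.486 in NSCs (SD, n = 3). Sox2 was 315 ± 3.90, 138 ± 9.12, 148 ± 15.3 and 185 ± 39.8 FPKM in the same 4 groups. T had 103 FPKM at day 7, 21.1 FPKM at day 9 and 0.500 FPKM in NSCs, and Cer1 had 69.4, 1.67 and 0.0387 FPKM. These genes therefore had their highest mean at day 7 among the 4 WT groups. Fabp7 had 97.7, 363 and 3862 FPKM. Crabp2 had 539.9 FPKM at day 9 and 0.345 FPKM in NSCs. Since these comparisons would share the day 7 or mESC libraries with the comparison described here, they are given as levels.

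**Figure D4:**
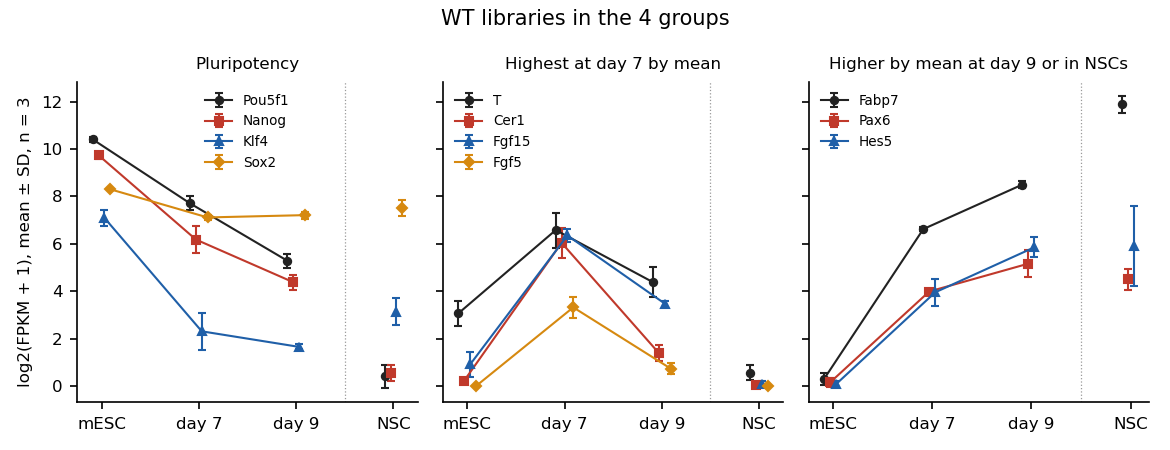
Mean and SD of log2(FPKM + 1) over 3 WT libraries in each of the 4 groups for 11 genes, with NSCs from a separate protocol and so not joined to day 9. Pou5f1, Nanog and Klf4 are lower at day 7 than in mESCs, T, Cer1, Fgf15 and Fgf5 have their highest mean at day 7, and Fabp7, Pax6 and Hes5 have higher means at day 9 or in NSCs.

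Most genes called in WT were called in the same direction in KO. All 24 libraries shared one estimate of the spread, while the size of the KO change came from KO libraries alone. There, 7372 genes were called between KO day 7 and KO mESCs (62.7%). With the 6 WT libraries fitted alone the WT calls were 2947 higher and 3351 lower. Of the WT calls, 6214 were called in the same direction in KO (87.1% of the WT calls and 84.3% of the KO calls) and 20 in the opposite direction. The test of the difference between both changes called 224 genes (1.90%), 74 with a higher and 150 with a lower change in KO, and 1215 at an unadjusted p under 0.05. Genes entered by their level in the 6 WT libraries alone, so a gene expressed only in KO cells could not be tested. The split into 74 and 150 depends on this filter and is a description. Without WT day 7 replicate 2, KO day 7 replicate 3 or KO mESC replicate 3 the number called was 133, 132 or 140, and without WT day 7 replicate 1 it was 275. It was 70 of 8553 genes with a mean of at least 5 FPKM required. From the 4 groups alone it was 139, and with a pseudocount of 0.1 it was 147. Same-numbered WT and KO mESC libraries deviated together, and a fit blocked on replicate number within each stage called 359 genes, 213 of them among the 224. Each genotype is 1 line, so mutation and line cannot be told apart.

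Among the 150 genes with a lower change in KO, 96 had risen in WT, and 49 of these 96 were not called in KO, 31 rose there and 16 fell. The test subtracts the WT change and genes entered by WT levels alone, which favours rises in WT, so these counts are descriptions. In 73 of the 96 the lowest WT day 7 library was replicate 1. T stood at 52.1, 132 and 124 FPKM in WT day 7 and had 17.0, 9.47 and 9.84 FPKM in KO mESCs and 0.719, 2.03 and 2.03 FPKM at KO day 7 (difference of the 2 changes -5.85, limma adjusted p 1.84e-05). Foxa2 had values listed at 0 in every KO mESC library and 0.344, 1.40 and 0.431 FPKM at KO day 7 (difference of the 2 changes -4.05, limma adjusted p 3.28e-04), and Shh had values listed at 0 in every KO mESC library and 0.0672, 0.169 and 0.168 FPKM at KO day 7 (difference of the 2 changes -3.58, limma adjusted p 0.00469). In KO, then, neither T, Foxa2 nor Shh reached the level of any WT day 7 library. Cer1 had 0, 0.133 and 0 FPKM in KO mESCs and 0.215, 3.10 and 2.29 FPKM at KO day 7 (difference of the 2 changes -4.53, limma adjusted p 6.53e-06), and Spink3 had 0, 1.87 and 0 FPKM in KO mESCs and 1.51, 0 and 0 FPKM at KO day 7 (difference of the 2 changes -5.71, limma adjusted p 0.00616). Another 3 genes of this set, chosen after their values were seen, are given as examples and stand for no list. Noto, a homeobox gene of the node, was listed at 0 in every WT mESC library, had 4.88, 8.40 and 4.89 FPKM at WT day 7 and was at most 0.297 FPKM in the KO day 7 libraries. Chrd, the BMP antagonist chordin, had 8.16, 13.2 and 9.32 FPKM at WT day 7 and 0.647, 0.812 and 0.608 FPKM at KO day 7, and Foxj1, a factor for motile cilia, had 9.89, 11.8 and 5.31 and 0.697, 1.40 and 1.31 FPKM. The hedgehog targets Gli1 and Ptch1 did not reach their WT day 7 level either, with Ptch1 at 11.9, 10.7 and 9.66 FPKM in KO. Both were called for the difference (difference of the 2 changes -2.12, limma adjusted p 0.00114 for Ptch1).

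The neurectoderm genes Sox1 and Irx3 rose in both lines. Sox1 had 0.169, 0.322 and 0.184 FPKM in KO mESCs and 64.9, 57.9 and 70.3 FPKM at KO day 7, and its difference was not called (limma adjusted p 0.0833). Irx3 had 0.402, 0.383 and 0.329 FPKM in KO mESCs and 61.5, 68.4 and 72.7 FPKM at KO day 7 (adjusted p 0.998, limma). Among the 74 genes with a higher change in KO were the forebrain gene Lhx2, with 0.933, 1.48 and 1.13 FPKM in KO mESCs and 16.7, 11.4 and 9.16 FPKM at KO day 7 against 4.54, 1.75 and 1.44 FPKM at WT day 7 (difference of the 2 changes 1.80, limma adjusted p 0.0279), and Tal2, a helix-loop-helix gene of the midbrain, with values listed at 0 in every KO mESC library and 26.2, 18.1 and 17.4 FPKM at KO day 7 against 2.98, 0.646 and 2.27 FPKM (difference of the 2 changes 3.02, limma adjusted p 4.94e-05). The naive pluripotency gene Klf4 fell in both lines, by a log2 fold change of -4.78 in WT and -5.15 in KO (limma adjusted p of the difference 0.973).

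**Figure D5:**
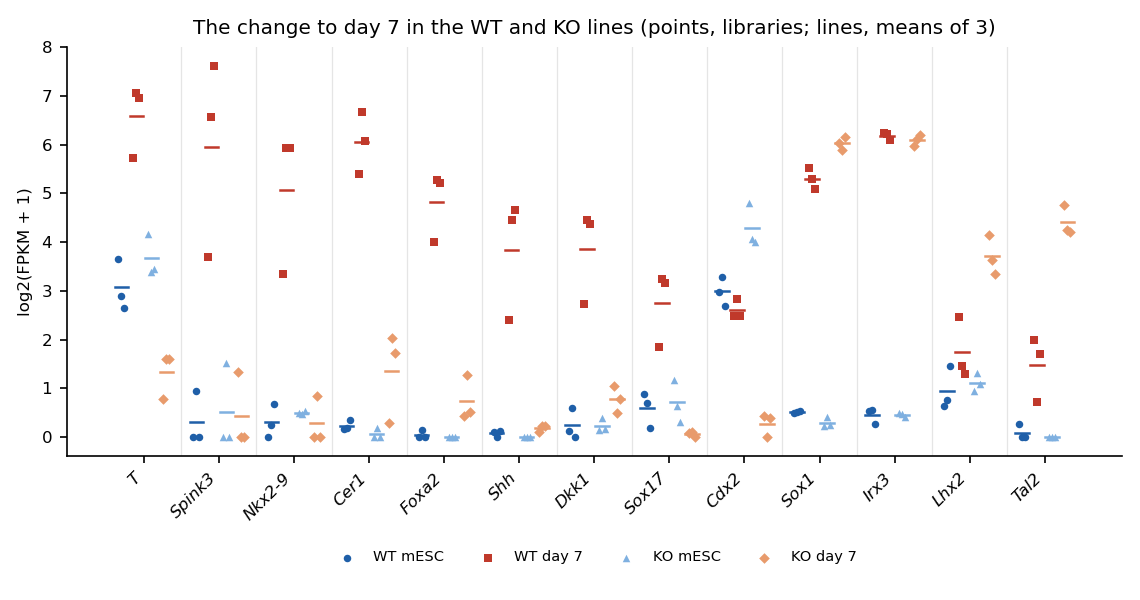
log2(FPKM + 1) of 13 genes in WT mESCs (blue circles), WT day 7 (red squares), KO mESCs (light blue triangles) and KO day 7 (orange diamonds), 1 point per library with a line at the mean of 3. T to Cdx2 have a lower change in KO, Lhx2 and Tal2 a higher one, and Sox1 and Irx3 were not called for the difference.

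Changes were spread over the autosomes. Between 55.4% (chromosome 12) and 66.4% (chromosome 14) of the tested genes of a chromosome were called. Runs of at least 5 neighbouring tested genes that all changed at least 2-fold in one direction numbered 5. The longest, with 7 genes each, were the rise around Peg10 and Sgce described above and a fall on mm9 chr4:145207049-146166150 from Gm13212 to Zfp600, in a cluster of zinc finger genes whose near-identical copies make their counts uncertain. Of 11760 tested genes 9350 (79.5%) had a promoter in the reference. The ratio of observed to expected CpG in the promoter had a median of 0.721 for genes that rose at least 2-fold, 0.611 for those that fell as far and 0.804 for the other genes. A ratio under 0.4, that is few CpGs, was found for 16.7%, 30.4% and 9.06% of them.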

How the data were processed

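RNA was sequenced by the authors from 24 libraries (8 groups of 3) after stranded poly(A) library preparation and single-end runs of 80 bases. Reads were trimmed with Trim Galore 0.6.6 and aligned to UCSC mm9 with TopHat2 2.1.1, rRNA and X-chromosome reads were removed, and Cuffdiff of Cufflinks 2.2.1 was run. Values deposited are FPKM as the authors' Cuffdiff run gave them. Its setting for library normalization and for strand is not given in the sources used here. Of 36 FPKM columns, 12 belong to no sample used here and were not used. All 1091 entries on X or Y are 0. Of the entries tested, 129 hold several symbols and 1862 overlap another locus, and their reads cannot be assigned to 1 gene with certainty.

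Groups were taken from the sample titles. All 8 groups were fitted with limma 3.58.1 (R 4.3.3) to log2(FPKM + 1) with a pseudocount of 1 and no covariate, and contrasts were tested two-sided with eBayes (trend, robust) and Benjamini-Hochberg adjustment over 11760 genes, with a call at an adjusted p under 0.05. The difference between the change in KO and the change in WT was an interaction contrast in the same fit. The script was tested on simulated data. Read numbers are unknown, so no counting interval is given. Relative reads came from the steps between values of low genes. Within groups the Pearson correlation of log2 values was 0.967 to 0.9825, and no pair was identical. Deviations from the group means of same-numbered WT and KO libraries correlated at 0.302, 0.466 and 0.150 in mESCs and at 0.106, 0.0889 and 0.0449 at day 7, so the numbers pair the mESC libraries of both lines by the data, while no label states a shared culture.

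Named genes were the 12 called genes with the largest and the 12 with the smallest log2 fold change among those that did not overlap between the groups and had a mean of at least 5 FPKM in 1 of them, the 5 with the largest gain and loss of FPKM, the defining members and the 2 largest changes of each list, 3 at each end of the interaction, and the 5 widest spreads at day 7. Further list members are named as examples chosen after their values were seen. The members, the gene lists and the tests were chosen with earlier results of these data known. Promoters were taken from RefSeq (GRCm38.p6) by symbol, and gene positions from the files or, where 2 entries share a locus, from the GENCODE annotation of the mm9 build. Alternatives were other pseudocounts, filters, scalings, eBayes settings, a replicate block, fits of fewer groups and leaving out each library. Figures were drawn with matplotlib 3.10.9.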

Additional observations from a re-analysis of the deposited data

Results flagged for a closer look

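For 28 of the 146 named genes the change to day 7 differed between the KO and the WT line, beside 1.90% of all tested genes. The interaction test was used (limma adjusted p under 0.05, 3 libraries per group). Some named genes were picked by this test and others by their WT change, which enters it, so the count is a description. Values are the log2 change in KO minus that in WT, so that a negative value is a change to day 7 that was lower in KO, as a smaller rise, a larger fall or a fall in place of a rise. The 5 most negative were those of T -5.85, Spink3 -5.71, Nkx2-9 -4.97, Cer1 -4.53 and Foxa2 -4.05. They were followed by Cdx2 -3.63, Shh -3.58, Nkx6-2 -3.32, Meox1 -3.31, Dkk1 -3.07 and Sox17 -2.80. Smaller differences in the same direction were those of the Wnt target Sp5 (-2.08), the endoderm and streak genes Gata6 -1.52, Mixl1 -1.42 and Eomes -1.003, the caudal gene Cdx1 (-0.97), smooth muscle actin Acta2 (-1.64), the imprinted gene Peg3 (-1.39), the cyclin gene Ccnd2 (-1.21), the laminin gene Lama1 (-0.996) and 2210409E12Rik (-0.997). The p53 targets Cdkn1a -1.30, Phlda3 -1.01 and Ccng1 -0.95 were in the same group. For Cdx2 and Sp5 the lines differed in mESCs already, which enters the difference. Cdx2 had 26.9, 15.8 and 14.9 FPKM in KO mESCs against 6.92, 8.75 and 5.46 FPKM in WT mESCs. Sp5 had 83.6, 80.7 and 89.4 FPKM against 31.9, 54.8 and 42.2 FPKM. With the replicate number as a block within each stage Nkx6-2 lost the call (limma adjusted p 0.076) and the other 27 kept it. The 4 genes with a higher change in KO were Tal2 3.02, Gm3002 1.85, Lhx2 1.80 and Lrp2 1.08. In WT, T had 52.1, 132 and 124 FPKM at day 7 while KO had 0.719, 2.03 and 2.03 FPKM. Both lines are 1 line each, and mutation and line cannot be told apart.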

How the results depend on the processing

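The counts of genes higher and lower stayed within 1.5 times their value under most alternatives. With a mean of at least 5 FPKM required, 2133 genes were higher, and with libraries scaled to the same sum 2378 were lower and 4233 higher. For changes of at least 1 the counts were 692 with a pseudocount of 5 and 876 at a mean of at least 5 FPKM, and for -1 or below 619 and 779. Fewer genes enter at the higher filter, and a larger pseudocount shrinks low values. With single libraries left out, 3018 to 3314 genes were higher, 3402 to 3787 lower, 1499 to 1697 at 1 or more and 1156 to 1241 at -1 or below. The KO interaction was less steady, with 147 genes at a pseudocount of 0.1, 70 at a mean of at least 5 FPKM, 139 from the 4 groups alone, 290 with no filter and 132 to 275 with single libraries left out. The cause was not tested. With the replicate block 3341 were higher, 3811 lower, 1562 at 1 or more, 1179 at -1 or below and 237 in the interaction. Replicate numbers did not pair mESC with day 7 libraries (correlations of deviations -0.047, 0.015 and 0.041). A block by number within each stage, chosen after seeing the data, gave 359 genes in the interaction. The difference in summed FPKM was -58651.8 without the 100 highest genes and -142197 to -96831.8 with single libraries left out. Of 146 named genes 128 were called. All 16 alternatives could be run for 106 of these, of which 96 kept the call in each, and 22 were left out by a stricter level filter, of which 19 kept the call in each alternative that was run. Genes not called changed sign as follows. With the same sum, Hk2 became 0.00485, Sqle became 0.136, Atf4 became 0.0750, Lmnb1 became 0.114. With single libraries left out, Tubb3 lay between -0.0423 and 0.846, Col4a1 lay between -0.0302 and 0.436, Atf4 lay between -0.365 and 0.108, Chac1 lay between -0.180 and 1.55, Trib3 lay between -0.594 and 0.0577, Lmnb1 lay between -0.330 and 0.0784. Read numbers are unknown, so how far depth limits genes of low FPKM cannot be given.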

Other observations

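All 6 genes of the prolactin family that passed the level filter, hormones of the placenta and decidua related to prolactin, were listed at 0 in every WT mESC library and were called higher at day 7 (limma adjusted p under 0.05). They passed the filter only through their day 7 values, which fixed this direction, so the count is a description. Prl2c5 had 14.6, 14.01 and 11.3 FPKM at day 7, Prl4a1 had 15.9, 8.73 and 10.9 FPKM, Prl2a1 had 11.6, 9.41 and 6.72 FPKM and Prl7d1 had 11.03, 8.41 and 5.92 FPKM. At day 9 their WT means were 14.2, 12.04, 11.4 and 9.88 FPKM, and they were listed at 0 in WT NSCs. In KO day 7 cells the means were 2.16, 1.64, 1.57 and 0.696 FPKM. Of the 6, 5 lie side by side on mm9 chr13:27404496-29045551 and, with Sox4, form a run of 6 neighbouring tested genes that rose at least 2-fold. The genes of this family are close copies of each other, so reads could have been split between them. The trophectoderm gene Tpbpa, also listed at 0 in mESCs, had 4.95, 4.85 and 2.92 FPKM at day 7, while the trophectoderm gene Cdx2 was not called. Whether these transcripts come from a cell type of the placenta was not tested.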
